A study of Mus musculus with 6 samples.

Results

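The genes described here encode the core machinery of apoptosis and necroptosis, and were followed in mouse liver after injection of an adenovirus meant to overexpress Chrna4. Members were chosen by symbol alone: every gene whose symbol begins with Bcl2, or with Casp, Birc or Ripk and a digit, together with Mcl1, Bak1, Bid, Bad, Bik, Bmf, Bbc3, Pmaip1, Mlkl, Cflar, Fadd, Tradd, Apaf1 and Xiap. Bax, Birc5, Casp1 and Casp4 were left out of the list. This gave 40 of the 14492 genes in the deposited table. Casp8ap2, whose product binds caspase 8 but is no caspase, is among them because its symbol fits the rule. Poly(A)+ RNA was sequenced from 3 livers labelled as injected with Chrna4-overexpressing adenovirus, called Chrna4-labelled below, and from 3 livers labelled vehicle. All 6 mice were male C57BL/6J, 8 weeks old at the tail vein injection, and ate a high-fat diet for the 2 weeks that followed it. The labels do not say whether vehicle contained a virus without Chrna4, nor which promoter drives the transgene, and they name no culture, litter or pairing, so p-values measure only the spread between these samples, which may be partly technical.

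Apoptosis follows either of 2 routes. In the mitochondrial route, BH3-only proteins neutralise the anti-apoptotic BCL2 proteins or activate the pore formers BAK and BAX, cytochrome c leaves the mitochondrion, and APAF1 assembles it into the apoptosome that activates caspase 9. In the death receptor route, FADD and TRADD recruit caspase 8, which the CFLAR protein restrains, and both routes converge on the executioner caspases. Where caspase 8 is held back, RIPK1 can instead engage RIPK3, which phosphorylates MLKL, and MLKL ruptures the plasma membrane in necroptosis. In hepatocytes MCL1 and BCL-XL, the product of Bcl2l1, are the main guards of the mitochondrion, and RIPK3 is known to be scarce in healthy hepatocytes.

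Among the members, the Bcl2a1 copies need their sequences to be read with their values. Bcl2a1a, Bcl2a1b and Bcl2a1d encode A1, an anti-apoptotic BCL2 protein best known from leukocytes, and lie on chromosome 9 of GRCm38, at 88956900 to 88962419 on the plus strand, 89199209 to 89207827 on the plus strand and 88723285 to 88731914 on the minus strand. Their coding sequences in GENCODE M21 are each 519 bases long. Bcl2a1a and Bcl2a1d differ at 7 bases (98.7% identity), Bcl2a1b and Bcl2a1d at 6 (98.8%), and Bcl2a1a and Bcl2a1b at 11 (97.9%). The longest stretch without a difference was 314 bases for the first of these pairs and 217 bases for each of the others, longer than a read of 150 bases. The first 90 bases of the coding sequence hold 6 of the 12 positions at which any copy differs, and are shown 5′ to 3′ with those positions in capitals:
Bcl2a1a: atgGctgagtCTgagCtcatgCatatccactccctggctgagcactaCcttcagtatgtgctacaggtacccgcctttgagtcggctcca
Bcl2a1b: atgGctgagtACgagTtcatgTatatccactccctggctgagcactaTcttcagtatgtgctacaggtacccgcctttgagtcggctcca
Bcl2a1d: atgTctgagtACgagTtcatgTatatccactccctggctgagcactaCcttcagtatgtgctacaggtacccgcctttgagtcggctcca
A read or read pair that misses the differing bases fits more than 1 copy, and the labels do not say how such reads were counted. Besides, 49.1% of the exonic bases of Bcl2a1b also belong to Gm29094, a gene annotated on the same strand. Values of the single copies are therefore uncertain, and their sum is given beside them.

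Values below are in CPM, counts per 1000000 reads of a library total that the authors scaled. Recovered reads numbered 14959338 to 17023536 in Chrna4-labelled and 15191611 to 22440334 in vehicle libraries. Chrna4 itself had 3.70, 2.17 and 3.82 CPM in Chrna4-labelled livers, against 1.70, 4.99 and 3.38 CPM in vehicle livers. It was thus not detectably higher in the libraries labelled with it (log2 fold change 0.01, 95% interval -0.68 to 0.69, limma adjusted p = 0.993), and whether a vector transcript would be counted as Chrna4 is not stated. Across genes, Spearman correlations were 0.989 to 0.994 among Chrna4-labelled libraries and 0.99 between vehicle replicates 2 and 3. Vehicle replicate 1 stood apart, at 0.978 and 0.974 with the other vehicle libraries. The authors' scaling multiplied library totals by 1.11 to 1.14 in Chrna4-labelled and by 0.853 to 0.922 in vehicle libraries. With plain totals in its place, the whole distribution of log2 fold changes shifted upward, by 0.31 at its median, so changes below are relative to the bulk of genes. The 6 listed hepatocyte markers, all measured, summed to 64583 to 72247 CPM in Chrna4-labelled and 76058 to 85362 CPM in vehicle livers. Of the 6, 2 were lower, Ttr and Serpina1a, and 0 higher (limma, log2 fold changes -0.84 and -0.55). Alb, the largest part of the sum, overlapped between groups and did not pass (log2 fold change -0.17, limma adjusted p = 0.688). These sums are on the authors' scale and were not repeated with plain totals, so a fall of hepatocyte RNA cannot be read from them.

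The genes of the necroptosis effectors RIPK3 and MLKL, of the apoptosome scaffold APAF1, of BAK and of the BH3-only proteins BIM and NOXA were higher in Chrna4-labelled livers, and so were those of the anti-apoptotic proteins A1 and BCL2. Most caspase genes, the 4 inhibitor of apoptosis genes and the death receptor adaptors did not pass the test. With limma, on log2(CPM + 1) and over all genes with a mean of at least 1 CPM, 12 of the 39 tested members (30.8%) were higher at an adjusted p of 0.05, against 14.2% of all 12099 tested genes (24.5% were called in either direction). Those 12 were Bcl2a1d, Mlkl, Ripk3, Apaf1, Bcl2a1b, Pmaip1, Bcl2a1a, Bcl2l11, Casp12, Bcl2, Casp2 and Bak1. No member was lower with limma (0 of 39, against 10.3% of all tested genes), although 1 of them, Bmf, was lower at an unadjusted p of 0.05. Bmf was also called lower by DESeq2 (1 of 39) and in the authors' deposited table, but not by the edgeR quasi-likelihood test (0 of 39). The median log2 fold change was 0.18 over the tested members and -0.01 over all tested genes. The 3 Chrna4-labelled values lay above all 3 vehicle values for 16 of the tested members (41.0%), against 22% of all tested genes, and below them for 1 (2.56%), against 21%; either way it was 43.0% of all tested genes.

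The counts depend on the scale and on the filter. With plain totals 21 members were higher and 0 lower (limma), but then 37.3% of all tested genes were higher and 2.82% lower, so that 93.0% of all calls were rises, against 58.1% with the authors' scaling. With quantile normalization 9 members were higher and 1 lower, against 11.0% and 9.32% of all tested genes (limma). Without any filter, the counts were 12 higher and 0 lower of all 40 members, against 13.4% and 8.55% of all 14492 genes. The 3 Bcl2a1 copies had vehicle means under 1 CPM and entered the filtered test through the Chrna4-labelled group, and with a mean of at least 5 CPM demanded 5 of 30 tested members were higher (Apaf1, Mlkl, Bcl2l11, Bak1 and Casp2), against 10.6% of all genes tested there. Without Chrna4-labelled replicate 1 the count of higher members was 6 of 39 (limma), against 9.58% of all tested genes. With plain totals the groups of 27 members did not overlap, against 56.8% of all tested genes.

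**Figure D1:**
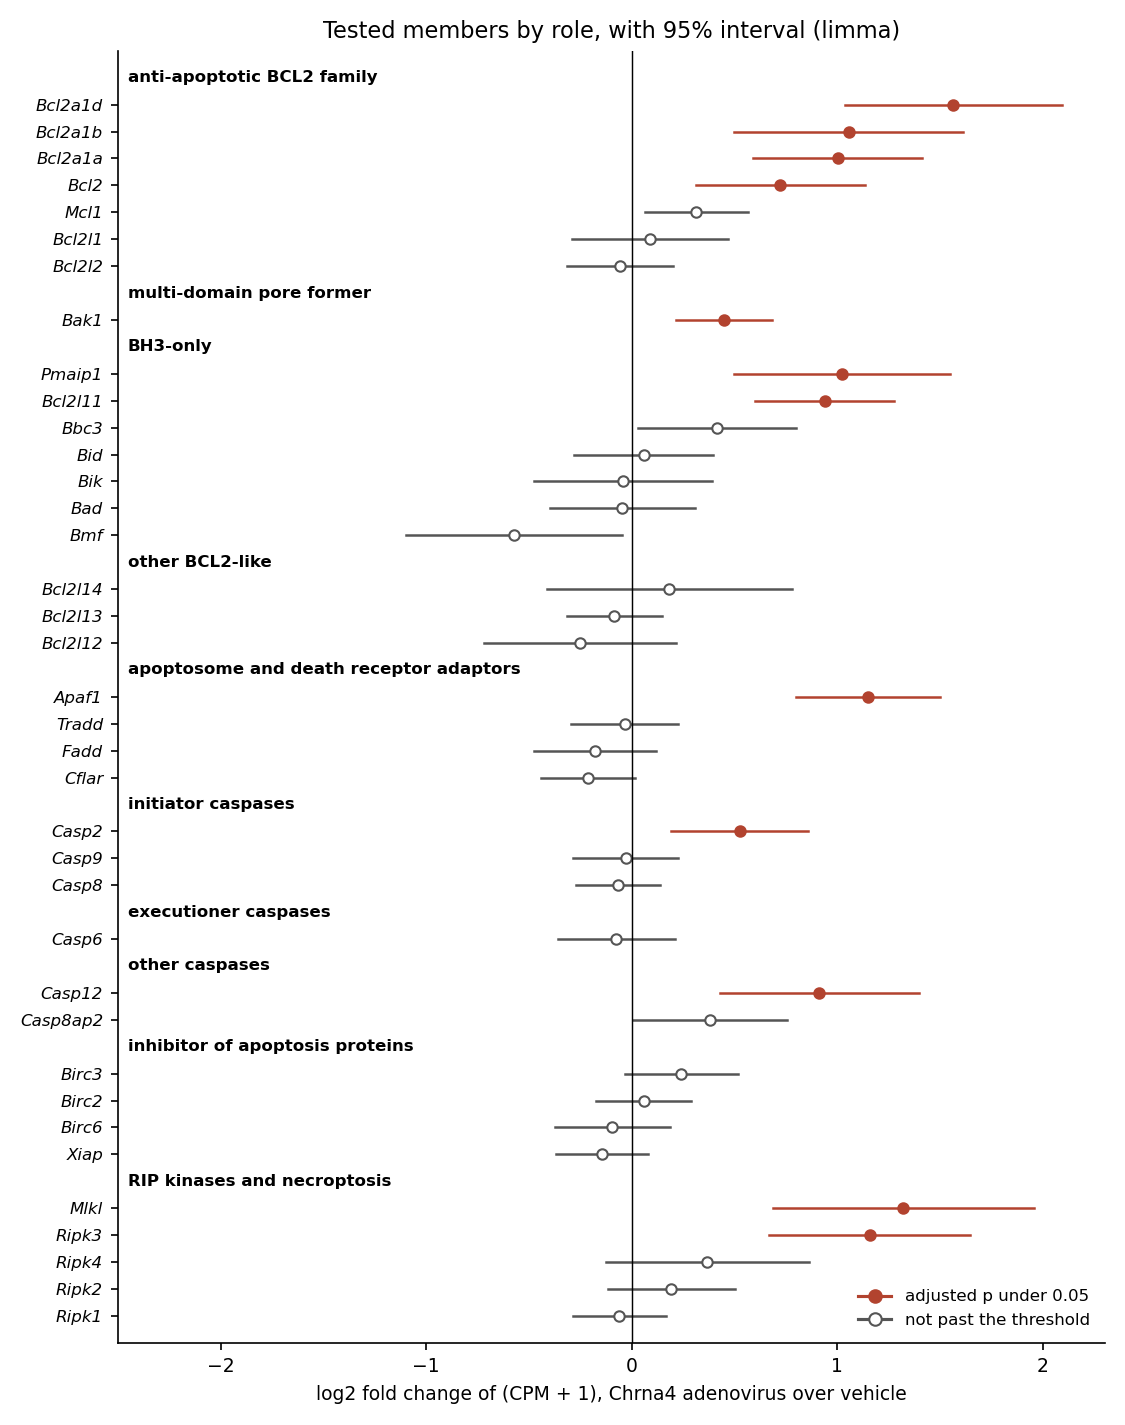
Log2 fold change of CPM + 1, Chrna4-labelled (Chrna4 adenovirus) over vehicle, on the horizontal axis for 37 of the 39 tested members, grouped by role. Points are limma estimates and lines 95% intervals; filled points passed an adjusted p of 0.05, and all 12 of them lie above 0.

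Among the 7 anti-apoptotic BCL2 family genes, 4 rose, against 14.2% of all tested genes, and 0 fell, with the same counts for edgeR and DESeq2. Of the 4, 3 are the Bcl2a1 copies, which may share reads and are not independent of each other. These copies had vehicle means under 1 CPM and entered the filtered test through the Chrna4-labelled group, so the count is no result about the family as a whole. The 3 copies and Bcl2 were among the scarcer members, and the abundant guards Bcl2l1 and Mcl1 did not pass. Bcl2a1d was at 4.34, 4.66 and 3.34 CPM in Chrna4-labelled livers, against 0.309, 0.697 and 1.29 CPM in vehicle livers. The lowest Chrna4-labelled value was thus more than the highest vehicle value, and the log2 fold change was 1.56 ± 0.23 (SE; limma adjusted p = 0.00288). Bcl2a1a was at 2.00, 1.96 and 1.64 CPM in Chrna4-labelled livers, against 0.231, 0.483 and 0.596 CPM in vehicle livers (log2 fold change 1.0, limma adjusted p = 0.00594). Bcl2a1b was at 3.17, 2.22 and 1.38 CPM in Chrna4-labelled livers, against 0.463, 0.322 and 0.844 CPM in vehicle livers (log2 fold change 1.05, limma adjusted p = 0.0159). These values rest on 26 to 88 reads per copy in a Chrna4-labelled library and on 3 to 26 in a vehicle library, and the added 1 CPM shrinks fold changes of such low genes. On the linear scale the ratio of group means was 5.37 for Bcl2a1d, 4.27 for Bcl2a1a and 4.16 for Bcl2a1b.

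The sum of the 3 copies does not depend on how reads were divided among these 3, although reads that were discarded or given to other genes are missing from it as well. It was 9.51, 8.84 and 6.36 CPM in Chrna4-labelled livers, against 1.003, 1.502 and 2.73 CPM in vehicle livers, a ratio of means of 4.72. The groups did not overlap, and the exact permutation test gave a 2-sided p of 0.1, the smallest that 3 against 3 allows (adjusted p = 0.133 over the 8 within-library quantities tested this way). Markers of monocytes and neutrophils, cells that carry A1, rose in the same libraries: 6 of 7 tested markers passed as higher (limma), and their sum was 51.9 to 57.5 CPM in Chrna4-labelled livers, against 10.6 to 15.3 CPM in vehicle livers. None of those 7 was at 0 in any library. Their part in the Bcl2a1 difference was not tested, and in whole liver more cells of a type cannot be told apart from more RNA per cell.

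Bcl2, the founding anti-apoptotic gene, was at 4.34, 4.08 and 3.39 CPM in Chrna4-labelled livers, against 1.77, 2.63 and 1.64 CPM in vehicle livers. The groups lay apart, with a log2 fold change of 0.72 ± 0.18 (SE; limma adjusted p = 0.0209), a call that was lost without vehicle replicate 3 (0.0567) and without Chrna4-labelled replicate 1 (0.0756) or 2 (0.0841). Mcl1, the most abundant member per length as well, was at 167, 162 and 168 CPM in Chrna4-labelled livers, against 155, 124 and 123 CPM in vehicle livers. All 3 Chrna4-labelled values were above the vehicle values, but the log2 fold change of 0.31 (95% interval 0.06 to 0.56) did not pass after adjustment (limma adjusted p = 0.0700). Vehicle replicate 1 was the high one of its group, and without it Mcl1 passed (0.42, limma adjusted p = 0.00474). It also passed with quantile normalization (0.52, limma adjusted p = 0.00843) and with plain totals (0.65, 0.00189). Bcl2l1, which encodes BCL-XL, was at 55.7, 60.4 and 45.7 CPM in Chrna4-labelled livers, against 39.3, 57.2 and 56.7 CPM in vehicle livers. The groups overlapped, and the interval of its log2 fold change ran from -0.29 to 0.47. Bcl2l2, which encodes BCL-W, ranged from 23.2 to 28.4 CPM in Chrna4-labelled and from 26.8 to 28 CPM in vehicle livers.

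**Figure D2:**
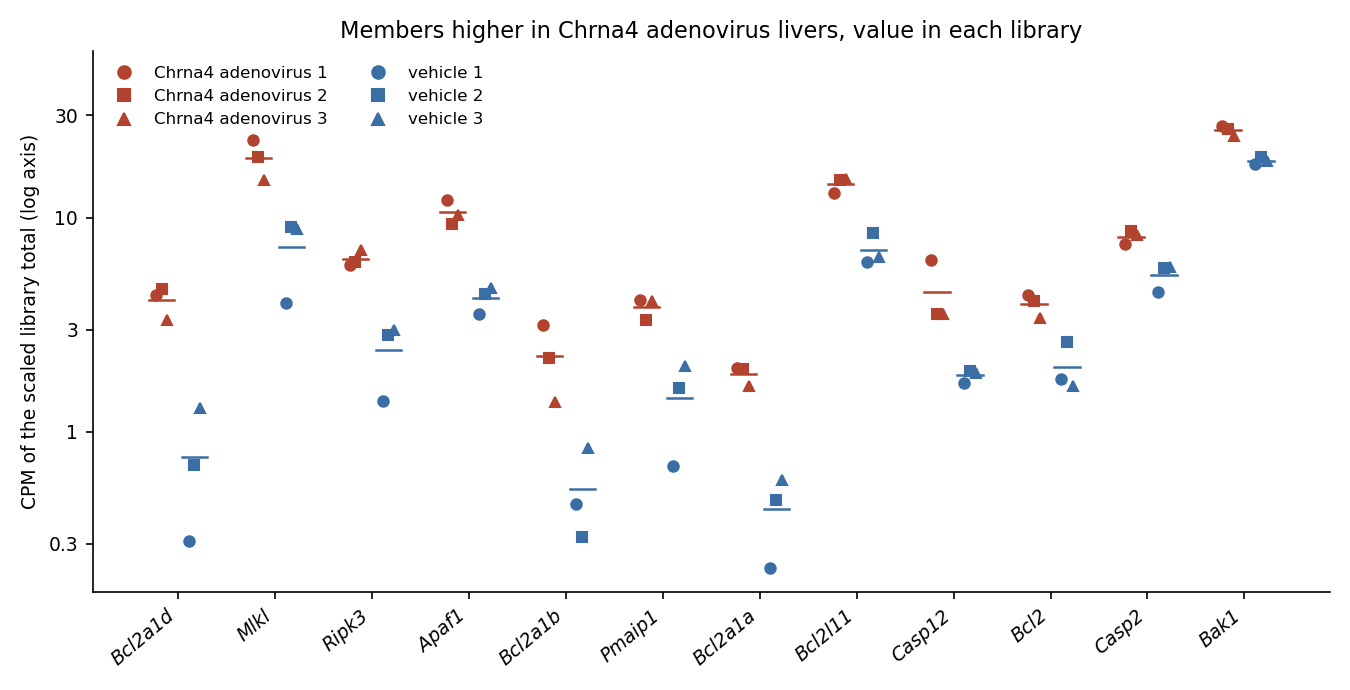
CPM of the scaled library total (log axis) in each library for the 12 members that were higher, with Chrna4-labelled livers (Chrna4 adenovirus, red) left of vehicle livers (blue); short lines are group means and symbols mark replicates. In each of the 12 genes the 3 red points lie above the 3 blue ones, and vehicle replicate 1 (blue circle) is the lowest in 10 of them.

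Bak1, the pore former of the outer mitochondrial membrane, was at 26.7, 25.8 and 24.0 CPM in Chrna4-labelled livers, against 17.7, 19.1 and 18.4 CPM in vehicle livers. Replicates were tight and the groups separate, with a log2 fold change of 0.45 ± 0.10 (SE; limma adjusted p = 0.0150). The call was lost without Chrna4-labelled replicate 1 (0.0576) or 2 (0.0723). Part of Bak1, 18.2% of its exonic bases, overlaps Ggnbp1 on the opposite strand, and whether strand was counted is not given. Ggnbp1 itself was lower, at 14.5, 14.3 and 12.3 CPM in Chrna4-labelled livers, against 34.3, 19.6 and 20.5 CPM in vehicle livers. Bax, the sister pore former that is no member, had a log2 fold change of 0.41 (limma adjusted p = 0.0204), and its groups did not overlap either, with 30.7 to 35.6 CPM in Chrna4-labelled and 24.1 to 26.1 CPM in vehicle livers. Its call was lost without Chrna4-labelled replicate 1 or 2 or vehicle replicate 2.

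Of the 7 BH3-only genes, sensors that trigger the mitochondrial route, 2 rose, against 14.2% of all tested genes (limma), and 5 did not pass. So few genes cannot be set apart from that share. Bcl2l11, which encodes BIM, a BH3-only protein that binds all anti-apoptotic relatives, was at 13, 14.9 and 15.2 CPM in Chrna4-labelled livers, against 6.17, 8.47 and 6.55 CPM in vehicle livers. The groups were well separated, and the log2 fold change of 0.94 ± 0.15 (SE; limma adjusted p = 0.00365) passed with any 1 library left out. Pmaip1, which encodes NOXA, a partner of MCL1 and a target of p53, was at 4.11, 3.33 and 4.08 CPM in Chrna4-labelled livers, against 0.694, 1.61 and 2.04 CPM in vehicle livers. Its log2 fold change was 1.02 ± 0.23 (SE; limma adjusted p = 0.0144), and the call was lost without Chrna4-labelled replicate 1 (0.0563) or 3 (0.0579).

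Bmf, a BH3-only gene linked to the cytoskeleton and to loss of attachment, was the member with the lowest fold change. It was at 8.22, 9.69 and 8.16 CPM in Chrna4-labelled livers, against 15.4, 17.6 and 8.74 CPM in vehicle livers. Vehicle replicate 3 lay within the Chrna4-labelled range while the other vehicle libraries lay above it, and Bmf missed the threshold at a log2 fold change of -0.57 (limma adjusted p = 0.109; 95% interval -1.10 to -0.05). The gene passed as lower without vehicle replicate 3 (-0.85, limma adjusted p = 0.00751), with quantile normalization (-0.76, 0.0430) and with DESeq2 (adjusted p = 0.0462). The authors' deposited table gives Bmf a log2 fold change of -0.68 with an adjusted p of 0.0352. Bbc3, which encodes PUMA, another p53 target, was at 13.3, 15.5 and 13.7 CPM in Chrna4-labelled livers, against 8.18, 13 and 10.4 CPM in vehicle livers. Its groups were separate by a narrow margin, and its log2 fold change of 0.41 did not pass (limma adjusted p = 0.112). It passed without vehicle replicate 2 (0.57, limma adjusted p = 0.0438) and with plain totals (0.72, 0.0151). Bid, the BH3-only protein cleaved by caspase 8, Bad, which growth factor signals silence, and Bik had log2 fold changes between -0.05 and 0.06 with overlapping groups. Bid and Bcl2l13 meet tail to tail on chromosome 6 and share 628 exonic bases, 17.7% of those of Bid, so without a statement on strand their reads cannot be told apart there.

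Of the other BCL2-like genes, Bcl2l12, Bcl2l13, a receptor for removal of mitochondria, and Bcl2l14, 0 of 3 passed with limma, edgeR or DESeq2, and 0 had an unadjusted p under 0.05. With 24.5% of all tested genes called in either direction (limma), 0 of 3 is no result about these genes as a group. Bcl2l15 was the only member under the filter. It had 6, 4 and 0 reads in Chrna4-labelled libraries and 0, 0 and 5 reads in vehicle libraries, and a count of 0 still allows up to 3 reads, or 0.159 to 0.231 CPM in those libraries, by counting error only.

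Downstream of the mitochondrion, the scaffold of the apoptosome rose and its caspase did not. Apaf1 was at 12.0, 9.37 and 10.3 CPM in Chrna4-labelled livers, against 3.55, 4.40 and 4.72 CPM in vehicle livers. All Chrna4-labelled libraries were far above all vehicle libraries, the ratio of means was 2.50, and the log2 fold change of 1.15 ± 0.15 (SE; limma adjusted p = 0.00201) had the lowest adjusted p of all members. Casp9, the initiator caspase that APAF1 activates, was at 18.7, 18.8 and 21.8 CPM in Chrna4-labelled livers, against 21.1, 20.3 and 19.0 CPM in vehicle livers. The groups overlapped, and the interval of its log2 fold change, -0.29 to 0.23, leaves room for a change of less than 1.5-fold either way on this scale. The same held for 20 of the 27 tested members that did not pass, whose 95% intervals lay within 1.5-fold in both directions. Among the exceptions were Bmf, Bbc3, Casp8ap2, Ripk4, Bcl2l12 and Bcl2l14.

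Of the members in the death receptor route, Casp8, Cflar, Fadd and Tradd did not pass. Casp8, its initiator caspase and also the brake on necroptosis, was at 40.02, 38.5 and 36.8 CPM in Chrna4-labelled livers, against 39.8, 41.0 and 39.97 CPM in vehicle livers. The values were nearly level, with a log2 fold change of -0.07 and a 95% interval from -0.27 to 0.14. Cflar, whose product cFLIP holds caspase 8 in check, lies 36489 bases from Casp8 on chromosome 1 and was at 115, 117 and 117 CPM in Chrna4-labelled livers, against 122, 134 and 151 CPM in vehicle livers. It was the only member with every Chrna4-labelled value below every vehicle value, but its log2 fold change of -0.21 did not pass (limma adjusted p = 0.166). It passed as lower without vehicle replicate 1 (-0.29, limma adjusted p = 0.0388), and its sign turned with plain totals (0.12, limma adjusted p = 0.397). The adaptor genes Fadd and Tradd had log2 fold changes of -0.18 and -0.03, with 9.17 to 10.6 and 12.3 to 14.6 CPM in Chrna4-labelled livers, against 9.93 to 12.1 and 13.7 to 13.9 CPM in vehicle livers.

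Among the remaining caspase genes, Casp2 and Casp12 rose. Casp2, an initiator caspase activated by DNA damage and by faults of cell division, was at 7.51, 8.68 and 8.27 CPM in Chrna4-labelled livers, against 4.48, 5.79 and 5.91 CPM in vehicle livers. The groups lay apart, with a log2 fold change of 0.52 ± 0.15 (SE; limma adjusted p = 0.0327), but the call was lost without any 1 Chrna4-labelled library and without vehicle replicate 2 (0.0627 to 0.131 without a Chrna4-labelled library). Casp12, an inflammatory-type caspase of rodents that resides at the endoplasmic reticulum, was at 6.34, 3.55 and 3.55 CPM in Chrna4-labelled livers, against 1.70, 1.93 and 1.89 CPM in vehicle livers. Chrna4-labelled replicate 1 was the high library, and the log2 fold change of 0.91 (limma adjusted p = 0.0162) was 0.68 without it (0.0375). Casp8ap2, which also acts in the processing of histone transcripts, had a log2 fold change of 0.38 (limma adjusted p = 0.133). Casp8ap2 passed as higher with plain totals (0.67, limma adjusted p = 0.0176).

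Casp6, an executioner caspase that cleaves nuclear lamins, was at 18.8 to 24.8 CPM in Chrna4-labelled livers and 23.3 to 23.8 CPM in vehicle livers. Its groups overlapped, and the log2 fold change of -0.07 did not pass (limma adjusted p = 0.712).

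The 4 inhibitor of apoptosis genes did not pass either, with limma, edgeR or DESeq2 (0 of 4, and 0 with an unadjusted p under 0.05). Over all tested genes 24.5% were called in either direction (limma), so 0 of 4 is no result about these genes as a group. Xiap, whose product binds and blocks caspases directly, was at 126, 109 and 121 CPM in Chrna4-labelled livers, against 120, 135 and 138 CPM in vehicle livers. Birc2 and Birc3 encode ubiquitin ligases that modify RIPK1 and are neighbours on chromosome 9, with 11634 bases between them on the same strand. Birc2 had a log2 fold change of 0.06 and Birc3, a target of NF-kB, one of 0.24 (limma adjusted p = 0.190). Birc6, a giant ubiquitin ligase, had one of -0.09. With plain totals, though, Birc3 passed as higher (0.56, limma adjusted p = 0.0121).

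Both genes that act late in necroptosis rose, while Ripk1 stayed within its replicate spread. Ripk3, the kinase that commits a cell to necroptosis, was at 5.99, 6.19 and 7.05 CPM in Chrna4-labelled livers, against 1.39, 2.84 and 2.98 CPM in vehicle livers. Every Chrna4-labelled value was above the highest vehicle value by a wide margin, and the log2 fold change of 1.16 ± 0.21 (SE; limma adjusted p = 0.00671) passed with any 1 library left out. Mlkl, the pseudokinase that RIPK3 phosphorylates and that breaches the membrane, was at 23.1, 19.1 and 14.9 CPM in Chrna4-labelled livers, against 4.01, 9.06 and 8.84 CPM in vehicle livers. Vehicle replicate 1 held the lowest value in both genes. The log2 fold change of Mlkl was 1.32 ± 0.28 (SE; limma adjusted p = 0.0111), and the call was lost by a narrow margin without Chrna4-labelled replicate 1 (0.0508). Without vehicle replicate 1 the log2 fold change was 0.99 for Mlkl and 0.92 for Ripk3, both past the threshold (limma adjusted p = 0.00252 and 0.00187).

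Ripk1, the kinase upstream of both cell death and NF-kB signalling, was at 33.8, 29.5 and 32.6 CPM in Chrna4-labelled livers, against 32.9, 32.4 and 34.9 CPM in vehicle livers. Its groups overlapped, with a log2 fold change of -0.06 and a 95% interval from -0.29 to 0.16. Ripk2, which relays signals of the NOD receptors, and Ripk4, known from skin differentiation, had log2 fold changes of 0.19 and 0.37 and did not pass (limma adjusted p = 0.349 and 0.258). Ripk4 passed as higher without vehicle replicate 3 (limma adjusted p = 0.0332) and with plain totals (0.0406). Ripk2 passed as higher with plain totals too (0.50, limma adjusted p = 0.0244).

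Promoters were looked up in RefSeq's GRCm38.p6 windows, each from 250 bases before to 50 after a start site, and found for 33 of the 40 members, 11 of them among the 12 that rose. Those of Ripk3 and Mlkl, the necroptosis pair, and of Apaf1 are shown 5′ to 3′ on the strand of the gene, because they differ in CpG dinucleotides, which are in capitals. They lie at chr14:55788808-55789107 (minus strand), chr8:111338156-111338455 (minus strand) and chr10:91082694-91082993 (minus strand):
Ripk3: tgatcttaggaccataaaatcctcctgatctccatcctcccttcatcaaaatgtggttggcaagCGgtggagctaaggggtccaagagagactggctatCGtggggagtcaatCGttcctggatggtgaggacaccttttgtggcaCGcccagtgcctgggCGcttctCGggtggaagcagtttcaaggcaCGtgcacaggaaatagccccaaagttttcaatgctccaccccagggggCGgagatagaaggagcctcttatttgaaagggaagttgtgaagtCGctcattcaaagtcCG
Mlkl: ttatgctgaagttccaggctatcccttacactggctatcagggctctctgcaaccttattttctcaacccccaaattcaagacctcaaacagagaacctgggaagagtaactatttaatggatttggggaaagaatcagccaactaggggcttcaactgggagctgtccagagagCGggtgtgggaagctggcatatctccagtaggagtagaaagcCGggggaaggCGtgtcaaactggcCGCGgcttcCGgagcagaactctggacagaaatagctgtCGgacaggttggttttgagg
Apaf1: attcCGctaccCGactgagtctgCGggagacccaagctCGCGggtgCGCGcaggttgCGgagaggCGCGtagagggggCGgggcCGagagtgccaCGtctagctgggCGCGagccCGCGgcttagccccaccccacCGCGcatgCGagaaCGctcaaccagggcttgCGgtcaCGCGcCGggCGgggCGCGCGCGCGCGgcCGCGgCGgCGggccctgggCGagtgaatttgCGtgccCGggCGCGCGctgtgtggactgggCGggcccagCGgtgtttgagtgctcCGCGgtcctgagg
The Ripk3 window holds 10 CpG dinucleotides and that of Mlkl 7, numbers that 43.5% and 52.1% of all 32851 windows reach or exceed. Apaf1 holds 46, reached by 1.65% of windows. Windows of the 11 higher members found ranged from 3 to 46 CpG dinucleotides with a median of 10.5, and those of members that did not pass from 1 to 39 with a median of 21, against a median of 7 over all windows. On either strand, the core of the interferon-stimulated response element, GAAANNGAAA, was in no window of these 11, and in 3.44% of all windows. The gamma-activated site TTCNNNGAA was in 1 of the 11, Casp12, with matches that begin 102 and 36 bases before the start site, and in 8.30% of all windows. The NF-kB consensus was in 0 of the 11 and in 8.46% of all windows, and the p53 decamer motif in 0 of the 11 and in 8.36%. Pmaip1, the p53 target among the members that rose, had no window and was not searched. These searches describe letters in short windows and not factor binding.

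Ratios of reads within a library do not depend on the scaling of libraries, and 7 pairs of members with linked roles were compared after their values had been seen. Ripk3 over Ripk1 was 0.177, 0.210 and 0.216 in Chrna4-labelled livers, against 0.0422, 0.0877 and 0.0855 in vehicle livers. Mlkl over Ripk1 averaged 0.596 ± 0.121 in Chrna4-labelled livers and 0.218 ± 0.0847 in vehicle livers (SD, n = 3 each). Apaf1 over Casp9 averaged 0.538 ± 0.0930 in Chrna4-labelled livers and 0.211 ± 0.0404 in vehicle livers (SD, n = 3 each). In these pairs the groups lay apart, so the rise of the first gene relative to its partner was seen at any scale. Bmf over Bcl2l11, both BH3-only genes, was 0.633, 0.649 and 0.537 in Chrna4-labelled livers, against 2.49, 2.08 and 1.33 in vehicle livers. The ratio was lower in every Chrna4-labelled library than in any vehicle library. Bcl2l11 over Mcl1, a trigger against the guard it binds, averaged 0.0867 in Chrna4-labelled livers and 0.0539 in vehicle livers, again without overlap. Each of those 5 ratios gave an exact 2-sided permutation p of 0.1, the smallest possible here (adjusted p = 0.133). Bak1 over Bcl2l1 and Casp8 over Cflar overlapped between groups, with an exact permutation p of 0.2 each.

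**Figure D3:**
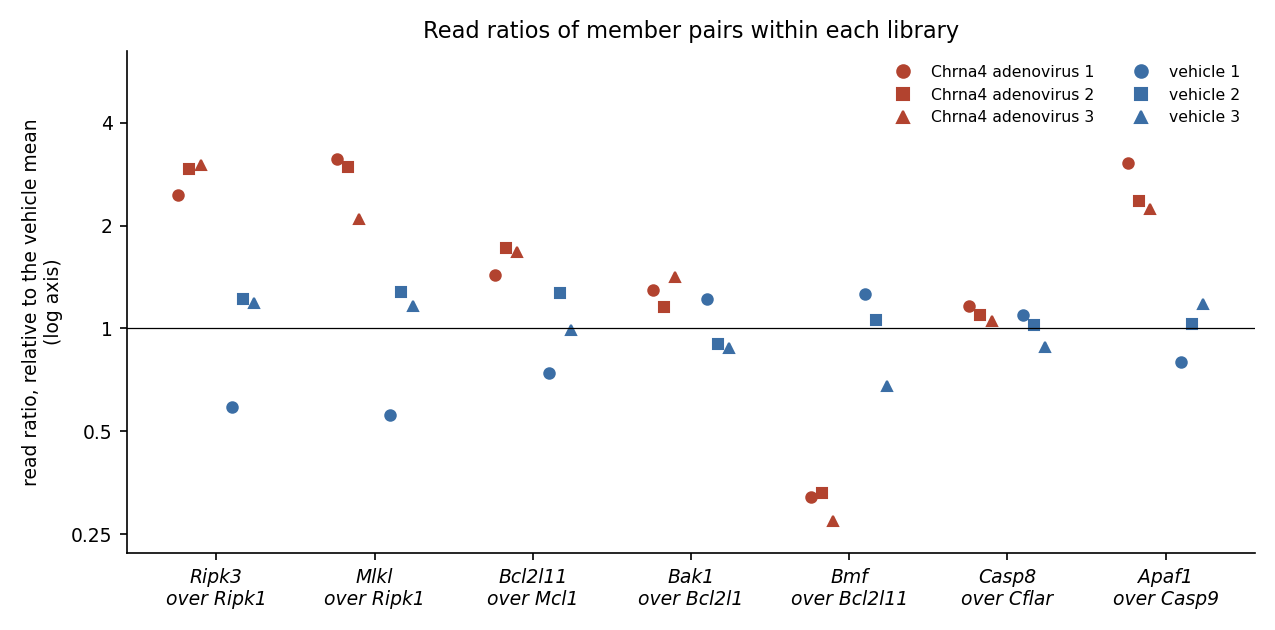
Ratio of reads of 2 members within each library, divided by the mean ratio of vehicle livers (log axis), for 7 pairs; Chrna4-labelled livers (Chrna4 adenovirus) are red and left, vehicle livers blue and right, and symbols mark replicates. Red and blue points are separate for Ripk3 over Ripk1, Mlkl over Ripk1, Bcl2l11 over Mcl1, Bmf over Bcl2l11 and Apaf1 over Casp9, and overlap for Bak1 over Bcl2l1 and Casp8 over Cflar.

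Levels of different genes can be compared per length, as CPM per kilobase of merged exons in GENCODE M21. On this scale Mcl1 led in both groups, at 48.5 ± 1.09 in Chrna4-labelled and 39.2 ± 5.36 in vehicle livers (SD, n = 3 each). Casp8, Xiap and Bcl2l1 followed at 13.3, 12.5 and 11.8 CPM per kilobase in Chrna4-labelled livers and 13.9, 13.8 and 11.1 in vehicle livers, and neighbours in this order did not differ beyond their spread in vehicle livers. Members that rose lay mostly at the low end in both groups, although the vehicle order is not independent of the call. Of the 12, Bak1 ranked 7 of 40 by level in vehicle livers, Mlkl 23, Ripk3 28, and the other 9 between 29 and 39. In Chrna4-labelled livers Bak1 ranked 5, Mlkl 9, Bcl2a1d 17, and the rest between 26 and 38. Mlkl was at 8.28 ± 1.78 CPM per kilobase in Chrna4-labelled livers, against 3.17 ± 1.24 in vehicle livers (SD, n = 3 each). Ripk3 was at 2.80 ± 0.245 CPM per kilobase in Chrna4-labelled livers and 1.05 ± 0.385 in vehicle livers. Merged exons count every annotated isoform, which lowers the level of genes with long rare exons such as Bcl2 and Birc6.

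**Figure D4:**
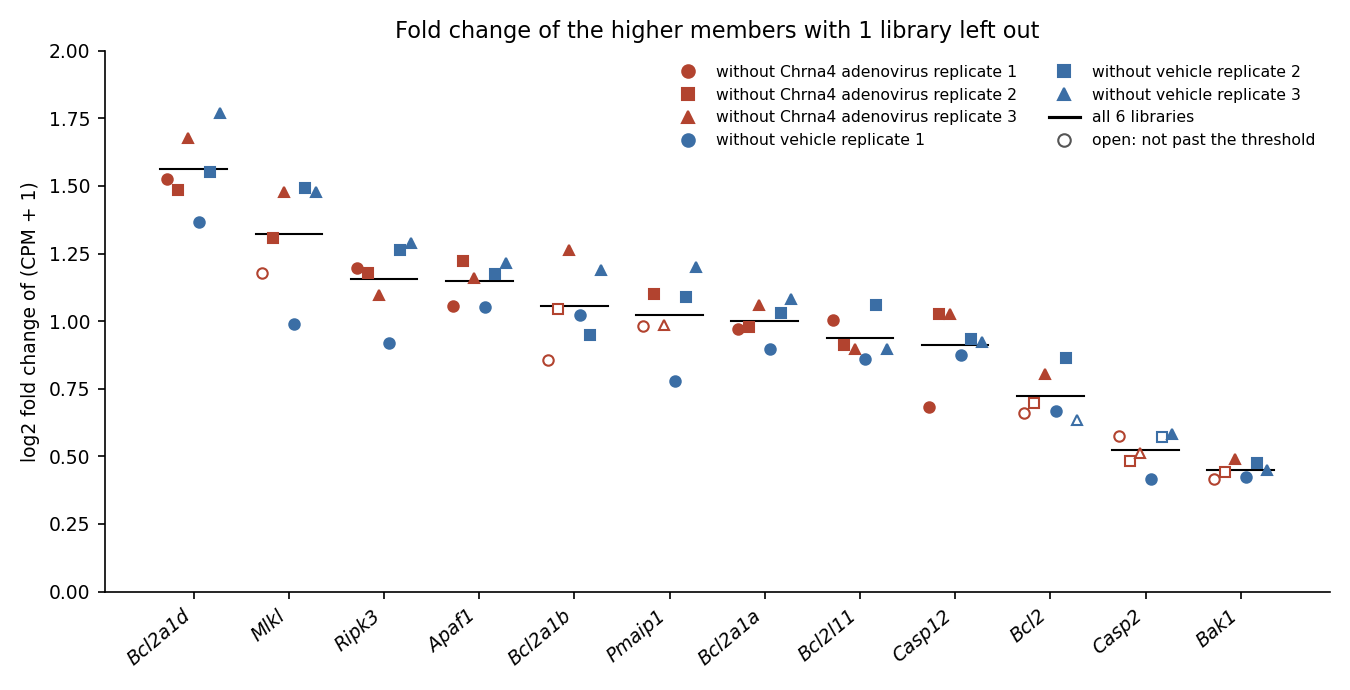
Log2 fold change of CPM + 1 for the 12 higher members when 1 library is left out (red, a Chrna4-labelled library, named Chrna4 adenovirus; blue, a vehicle library), with black lines for all 6 libraries. Filled points passed an adjusted p of 0.05 and open points did not; all points lie above 0, and 6 members have only filled points.

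Leaving out each library in turn kept some calls and ended others. Bcl2a1d, Apaf1, Bcl2a1a, Bcl2l11, Ripk3 and Casp12 passed in all 6 such fits, that is 6 of the 12 higher members (limma). Casp2 passed in 2 of the 6 fits, Bcl2 in 3, Pmaip1, Bcl2a1b and Bak1 in 4 and Mlkl in 5. Other settings sort the calls otherwise. With quantile normalization Casp12 did not pass, while Mlkl and Bak1 did (limma adjusted p = 0.0833, 0.0160 and 0.0276). Vehicle replicate 1 held the lowest value of the 6 libraries in 10 of the 12 higher members and in 17 of all 40, against 29.2% of all tested genes. The 10 calls did not rest on it, since all 12 members passed without that library, with log2 fold changes from 0.42 to 1.37. Of macrophage markers 6 of 9 were higher and 1 lower (limma), and their sum was 491 to 555 CPM in Chrna4-labelled livers, against 188 in vehicle replicate 1 and 406 and 400 in the other vehicle livers. The higher ones were Adgre1, Cd68, Csf1r, Gpnmb, Trem2 and Cd9. Timd4 was the lower one, at a mean of 0.476 CPM in Chrna4-labelled and 10.1 CPM in vehicle livers. Clec4f and Vsig4 overlapped between groups and did not pass (log2 fold changes -0.14 and 0.16), so the list did not rise as a whole. T and NK cell markers, of which 5 of 7 tested were higher, summed to 40.3 to 51.5 CPM in Chrna4-labelled livers, against 6.79, 20.9 and 18.6 CPM in vehicle livers. Vehicle replicate 1 was thus the lowest library in both these marker sums, as in Mlkl and Ripk3. It was also the lowest in the monocyte and neutrophil, stellate, endothelial and cholangiocyte sums, so this is not particular to macrophages or T and NK cells. In the hepatocyte sum it was the lowest vehicle library, at 76058 CPM against 82264 and 85362 CPM, but lay above all Chrna4-labelled libraries. In the B and plasma cell sum it was not the lowest, with 5.32 CPM against 8.58 and 3.92 CPM in the other vehicle livers. The part of these cells in the differences was not tested. No listed marker of macrophages, of T and NK cells or of B and plasma cells was at 0 in any library.

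Markers of other liver cells differed as well. Stellate cell markers summed to 375 to 429 CPM in Chrna4-labelled livers and 56.6 to 91.7 CPM in vehicle livers, and 3 of 6 passed as higher (limma). Those 3, the collagen genes Col1a1, Col1a2 and Col3a1, made up most of the sum. Lrat, Acta2 and Des overlapped between groups and did not pass, with log2 fold changes of 0.27, 0.39 and 0.44. B and plasma cell markers summed to 25.3 to 39.95 CPM in Chrna4-labelled livers and 3.92 to 8.58 CPM in vehicle livers (2 of 4 tested higher), and Sox9, the only cholangiocyte marker that reached the filter, was higher. The cholangiocyte sum of 12.7 to 16.3 CPM in Chrna4-labelled livers and 8.18 to 12.6 CPM in vehicle livers was mostly Sox9, whereas Krt19 and Epcam, both under the filter, lay lower in each Chrna4-labelled library than in any vehicle library. Endothelial markers overlapped, at 198 to 250 CPM in Chrna4-labelled livers and 159 to 226 CPM in vehicle livers, with 1 of 5 higher.

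Other genes of the same pathways were read from a list of 40 partners, 39 of them in the table and 36 tested. Of these, 8 were higher (22.2%, against 14.2% of all tested genes) and 4 lower (11.1%, against 10.3%; limma), and the list's median log2 fold change was 0.04. The 4 higher partners with the lowest p were Tnfrsf10b, Tnfaip3, Tnfrsf21 and Zbp1. Of other listed genes of death receptor and NF-kB signalling, Tnfrsf1a and Rnf31 were higher, though most fits with 1 library left out ended both calls. Tnfsf10, Traf2, Cyld, Otulin, Sharpin, Ikbkb and Ikbkg did not pass (limma), so these calls do not speak for that signalling as a whole. Tnfrsf10b, the mouse receptor of the death ligand TRAIL, was at 4.64, 3.49 and 2.91 CPM in Chrna4-labelled livers, against 0.386, 0.751 and 0.546 CPM in vehicle livers (log2 fold change 1.57, limma adjusted p = 0.00145). Its vehicle mean was 0.561 CPM, so this gene, which is among the 8, entered the filtered test through the Chrna4-labelled group. Tnfaip3, which encodes the NF-kB and necroptosis restraint A20, was at 17.7, 16.6 and 18.1 CPM in Chrna4-labelled livers, against 2.47, 6.44 and 5.46 CPM in vehicle livers (log2 fold change 1.74, limma adjusted p = 0.00291). Tnfrsf21, which encodes death receptor 6, had a log2 fold change of 1.2 (limma adjusted p = 0.00311). Zbp1, a sensor of unusual nucleic acids that engages RIPK3, was at 40.4, 40.9 and 32.1 CPM in Chrna4-labelled livers, against 6.94, 17.6 and 17.6 CPM in vehicle livers (log2 fold change 1.46, limma adjusted p = 0.0110). All 4 kept their calls with any 1 library left out, and vehicle replicate 1 was again the lowest library in each.

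Among the lower partners were genes of mitochondrial proteins, but Diablo, Htra2, Endog and Pgam5, whose products are mitochondrial too, did not pass (limma). These changes are on the authors' scale, relative to the bulk of genes, and single partners are not given with plain totals. Aifm1, a flavoprotein of the intermembrane space that can act in caspase-independent death, was at 129, 116 and 112.4 CPM in Chrna4-labelled livers, against 157, 160 and 158 CPM in vehicle livers (log2 fold change -0.41, limma adjusted p = 0.0126). Bnip3, a mitochondrial receptor for mitophagy, had a log2 fold change of -0.54 (limma adjusted p = 0.0131). Both calls were lost without Chrna4-labelled replicate 2 or 3. The count of called partners fell to 7, 4 and 5 without Chrna4-labelled replicate 1, 2 and 3, against 12 with all libraries, and it was 7 without vehicle replicate 2 and 8 without vehicle replicate 3 (limma). Fas, the receptor gene of the classical death ligand in liver, was at 19.95, 15.1 and 15.5 CPM in Chrna4-labelled livers, against 19.6, 15.2 and 13.7 CPM in vehicle livers, and did not pass; it was singled out after its values were seen.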

How the data were processed

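Poly(A)+ RNA of 6 livers was sequenced as 150 bp pairs. The submitters' processing notes list TopHat2 and HTSeq, and as builds mm10 and GRCm38; they give no version. No source used here states the annotation, or how strand and reads of several genes were handled. Per the file headers, the deposited table holds the authors' log2 fold change, mean log2 abundance, p-value and adjusted p-value, and 1 signal per library. Each deposited signal value was a whole number of reads times a step of its column (100% of values within 0.01 of a whole number), so reads were recovered; the fewest per gene over all libraries was 10.

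The design named limma for normalized values and it was the main test (limma 3.58.1, R 4.3.3; lmFit, eBayes with trend) on log2(CPM + 1), where 12099 genes reached a mean of 1, with Benjamini-Hochberg adjustment over all of them. On recovered reads, edgeR 4.0.16 and DESeq2 1.42.0 were alternatives; edgeR's quasi-likelihood test called 2841 of the 12099 genes, and 3057 of all 14492. Tested on simulated data (12055 genes), limma called 88 of the 100 genes given a 2-fold change and 100 of the 100 given a 4-fold one. It also called 12 genes that were left unchanged. The simulation changed a far smaller share of genes than the 24.5% called here (limma), so its rates need not carry over. Replicates differed beyond sampling noise (chi-square per degree of freedom 10.3 to 17.7 in Chrna4-labelled, 47.5 to 65.7 in vehicle). Counting intervals cover counting error only. Coordinates are from GENCODE M21 (GRCm38), where all 40 members were found; Birc7, Bcl2l10, Bcl2a1c and Casp14, which fit the symbol rule, were not analysed here. The values of 2 members are not reported here, though they are in the counts. Members, lists and roles were chosen with earlier results of these data known. Full values were given for members past the threshold and for a set of central genes named in the design; partners were named by the lowest p. Other members with values per library, such as Bmf, Bbc3, Cflar, Casp9, Xiap and Ripk1, were chosen after their values were seen.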

Additional observations from a re-analysis of the deposited data

How the results depend on the processing

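With limma, the 12 higher members kept their sign in every alternative that tested them; 7 of them were not tested with a filter at a mean of 5. The count was 12 with a pseudocount of 0.1 or 5, without the filter, without a trend, with edgeR and with DESeq2, 9 with quantile normalization, 5 with a filter at a mean of 5 and 21 with plain totals. It ranged from 6 to 13 with 1 library left out. Lower members numbered 0, but 1 with quantile normalization and with DESeq2 (Bmf in both), and 0 to 1 with 1 library left out. All called genes numbered 2962, 4852 with plain totals and 1442 to 3331 with 1 library left out. Called partners numbered 12, 6 with quantile normalization and 4 to 14 with 1 library left out. Members without overlap numbered 17, against 43.0% of all tested genes, and 27 with plain totals, against 56.8%. Quantile normalization ended the calls of Bcl2a1b, Casp12, Bcl2 and Casp2 and added that of Mcl1. The cause of these shifts was not tested.

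Members that did not pass and lie near 0 changed sign. With plain totals, log2 fold changes turned positive for Cflar (0.12), Bcl2l12 (0.021), Fadd (0.13), Xiap (0.19), Birc6 (0.24), Bcl2l13 (0.24), Casp8 (0.26), Ripk1 (0.26), Casp6 (0.25), Bcl2l2 (0.27), Bik (0.26), Bad (0.27), Tradd (0.28) and Casp9 (0.29). With quantile normalization those of Xiap (0.033), Birc6 (0.020), Bcl2l14 (-0.19) and Bid (-0.074) turned. With 1 library left out the range was -0.18 to 0.00336 for Birc6, -0.086 to 0.20 for Bcl2l1, -0.15 to 0.043 for Casp6, -0.11 to 0.034 for Bcl2l2, -0.23 to 0.15 for Bik, -0.071 to 0.16 for Bid, -0.13 to 0.078 for Bad, -0.089 to 0.024 for Tradd and -0.10 to 0.00734 for Casp9.

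The numbers in the deposited column names do not pair the libraries by the labels, and deviations of same-numbered libraries correlated at -0.0649, -0.0176 and 0.0210. A replicate block on those numbers, added after seeing the data, gave 2418 called genes, 11 higher members, 0 lower members and 9 called partners; Casp2 was the call it ended. The edgeR fit over all genes in the table was also added then. Low read numbers limit the Bcl2a1 copies and Bcl2l15 most.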
